A study of Homo sapiens with 2 samples.

Results

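The genes described here encode the cytosolic translation elongation factors, together with EEF1A1P5, a processed pseudogene (an intronless copy made by reverse transcription of an mRNA) of EEF1A1. They were the 9 rows of the deposited gene table that carry the symbols EEF1A1, EEF1A1P5, EEF1A2, EEF1B2, EEF1D, EEF1G, EEF1E1, EEF2 and EEF2K, out of 58302 rows. The study compared HL60-EIF2S3 cells by RNA-seq, with 1 library for each of 2 conditions. HL60 is an established human acute myeloid leukemia line, and both libraries came from cells carrying an EIF2S3 transgene in a Tet-Off system, in which doxycycline (DOX) switches the transgene off. The library labelled DOX(-) came from untreated cells and the library labelled DOX(+) from cells treated with DOX, at a dose and for a time that are not given in the sources used here. EIF2S3, the target gene, was listed at 132.9 FPKM in DOX(-) against 126.2 in DOX(+), a ratio of 1.053. Its counting interval was 0.927 to 1.196 on the shortest annotated transcript and 1.017 to 1.09 on the longest. These values show little or no difference in this row between the 2 libraries. The sources used here do not say whether transgene mRNA is counted in that row. The presence of doxycycline and the state of the transgene change together and cannot be told apart.

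Elongation is the step of protein synthesis in which the ribosome adds amino acids one at a time. The eEF1A protein, in a GTP-bound form, brings each aminoacyl-tRNA to the ribosome, the eEF1B complex (subunits encoded by EEF1B2, EEF1D and EEF1G) reloads eEF1A with GTP, and eEF2 moves the ribosome along the mRNA by one codon. EEF2K encodes the kinase that inhibits eEF2 by phosphorylation. Many of these mRNAs are among the most abundant in dividing cells and begin with a tract of pyrimidines, known as a 5′ TOP, through which mTORC1 signalling controls their translation.

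FPKM (fragments per kilobase of transcript, scaled to the total of the library) allows levels to be compared between genes. In genes with 1 annotated transcript the values step by whole fragments, which gave a depth of 16577788 fragments for DOX(-) and 18519439 for DOX(+). Since each condition had 1 library, no spread between cultures could be estimated and no test was made. Differences are log2(FPKM + 1) in DOX(-) minus DOX(+), and a gene was called different at 1.5-fold or more on that scale. Ratios are of plain FPKM, DOX(-) over DOX(+), with exact 95% counting intervals from fragments estimated on the shortest annotated transcript. For genes with several transcripts, the fragment numbers and intervals rest on the transcript length taken. EEF2, for example, had 5794 fragments in DOX(-) on its shortest transcript and 84098 on its longest. The intervals cover counting error only. By the 1.5-fold rule 3.11% of the 11525 genes with 1 FPKM or more in either library were higher in DOX(-) and 4.06% were lower, and the median difference of all these genes was -0.02. Among promyelocytic markers, CTSG, ELANE, PRTN3, AZU1, MYB and CD33 were above 1 FPKM in both libraries while MPO was at 0.274 and 0.469 FPKM. CD3D, CD3E, MS4A1, HBB, FCGR3B and EPCAM were listed at 0 in both, and in bulk RNA fewer cells of a type and less RNA per cell cannot be told apart. The markers of those other lineages summed to at most 3.46 FPKM per lineage, most of it HBA1 (1.33 and 3.36 FPKM). Genes of the mitochondrial genome held 22.5% of the FPKM total in DOX(-) and 27.7% in DOX(+), and values scaled without these genes are given where they change a call. Where 2 values carry no label, the first is that of DOX(-).

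Of the 9 rows, 8 reached 1 FPKM, and 1 of these 8, EEF2, was 1.5-fold higher in DOX(-), while none was 1.5-fold lower. Differences were above 0 in 6 of the 8, where 46.6% of all tested genes were above 0, and their median was 0.20. None reached 2-fold, which 2.03% of all tested genes did in either direction. The order of the levels was the same in both libraries. EEF1A1P5 was highest, followed by EEF2, EEF1A1, EEF1G, EEF1B2, EEF2K, EEF1D, EEF1E1 and EEF1A2. Neighbours in this order were separated by more than their counting intervals, except EEF1A1 and EEF1G in DOX(-) (275.4 to 295.9 and 259.2 to 280.5 FPKM), EEF2K and EEF1D in DOX(+) (8.771 to 13.06 and 4.714 to 9.144 FPKM), and EEF1D and EEF1E1 in both libraries.

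**Figure D1:**
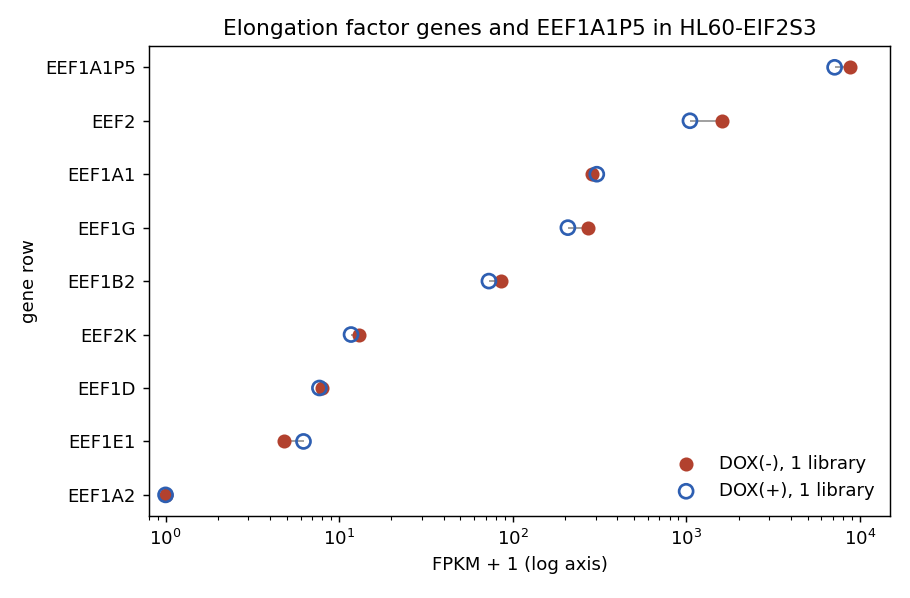
FPKM + 1 (log axis) of the 9 gene rows in the library labelled DOX(-) (filled) and the library labelled DOX(+) (open), 1 library each. EEF1A1P5 lies at 8724 and 7146 FPKM, far to the right of EEF1A1 at 285.5 and 303.9 FPKM, and EEF1A2 is at 0 in both.

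EEF1A1 encodes the eEF1A isoform of most dividing cells. On GRCh38, the gene (ENSG00000156508, chromosome 6, 73515750 to 73523797, minus strand) was listed at 285.5 FPKM in DOX(-) against 303.9 in DOX(+). Its FPKM ratio was 0.939 with a counting interval of 0.895 to 0.986, a log2 difference of -0.09. The row was thus listed slightly lower in DOX(-), and within 1.5-fold.

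EEF1A1P5 (ENSG00000196205, chromosome 9, 133019486 to 133020874, plus strand) is annotated as 1 exon of 1389 bases with no overlapping gene model in GENCODE release 29. It was listed at 8724 FPKM in DOX(-) against 7146 in DOX(+), rank 3 and rank 6 of all rows, and held 3.09% and 2.48% of the FPKM total. Because it has 1 transcript, its fragments follow directly, at 200894 in DOX(-) and 183808 in DOX(+). The ratio was 1.22 (1.213 to 1.229), a log2 difference of 0.29 in the opposite direction to that of EEF1A1. The pseudogene was listed 30.6 times as high as its parent in DOX(-) and 23.5 times as high in DOX(+).

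The 2 sequences are nearly the same. The 1389 bases of EEF1A1P5 align without a gap to the whole 1389-base coding sequence of EEF1A1 (its reference transcript is that with a CCDS tag and the longest coding sequence) and match it at 99.71% of positions, with 4 substitutions. Counted from the A of the start codon, they are T294C, T720C, T933G and C1094T, where the base of EEF1A1 comes first. Of these, 3 fall on the third base of a codon and 1 on the second. Read in frame, T933G changes an asparagine codon to lysine and C1094T a threonine codon to methionine, while T294C and T720C are silent. The reading frame of the pseudogene runs open to its codon 463, the stop codon of EEF1A1. The substitutions lie in exons 3, 5, 6 and 7 of the 8 exons of that transcript, at positions 73519367, 73518750, 73518450 and 73518200 of chromosome 6. All 4 sites are shown with 30 bases on each side, since no other base of the coding sequence differs between the 2 rows. Sequences are 5′ to 3′ from GENCODE release 29 transcripts, with the differing base in capitals.
EEF1A1, coding bases 264 to 324: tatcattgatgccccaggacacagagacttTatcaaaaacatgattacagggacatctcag
EEF1A1P5, chr9:133019749-133019809: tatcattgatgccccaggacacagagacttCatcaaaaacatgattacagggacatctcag
EEF1A1, coding bases 690 to 750: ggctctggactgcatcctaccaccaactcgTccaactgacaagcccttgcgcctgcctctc
EEF1A1P5, chr9:133020175-133020235: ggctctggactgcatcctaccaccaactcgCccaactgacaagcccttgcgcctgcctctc
EEF1A1, coding bases 903 to 963: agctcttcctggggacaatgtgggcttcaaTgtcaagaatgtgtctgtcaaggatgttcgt
EEF1A1P5, chr9:133020388-133020448: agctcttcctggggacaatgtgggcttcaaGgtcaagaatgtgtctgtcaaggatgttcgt
EEF1A1, coding bases 1064 to 1124: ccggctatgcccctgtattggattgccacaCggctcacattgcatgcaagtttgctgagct
EEF1A1P5, chr9:133020549-133020609: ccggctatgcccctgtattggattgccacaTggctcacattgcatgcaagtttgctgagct

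T294C is also carried by EEF1A1P6, EEF1A1P13 and EEF1A1P9, while T720C, T933G and C1094T are not carried by any of these 3. Between the first 2 of these sites, 425 coding bases in a row (295 to 719) are identical. Of all windows of 100 bases in EEF1A1P5, 69.0% occur letter for letter in an annotated EEF1A1 transcript, as do 85.1% of windows of 50 bases and 51.6% of windows of 150 bases. Counting the other EEF1A1 pseudogenes too, only 25.9% of the 100-base windows of EEF1A1P5 and 21.9% of those of the EEF1A1 coding sequence are found in no other row of the family. The reference transcript of EEF1A1 has 1923 bases, of which 1389 are coding. Its untranslated bases lie outside the alignment with EEF1A1P5 and were not part of the 21.9%. Neither read length nor the handling of reads that map to several places is stated in the sources used here. The division of fragments between the 2 rows is therefore uncertain, and their sum is given beside them.

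**Figure D2:**
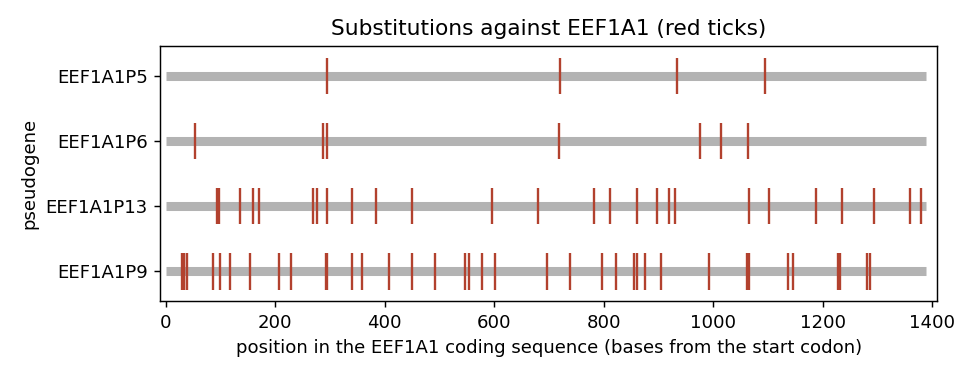
Substitutions (red ticks) along the 1389 bases of the EEF1A1 coding sequence, counted from the start codon, in the 4 pseudogenes of EEF1A1 with the highest FPKM. EEF1A1P5 has 4, EEF1A1P6 7, EEF1A1P13 26 and EEF1A1P9 38.

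Summed, EEF1A1 and EEF1A1P5 came to 9010 FPKM in DOX(-) against 7449 in DOX(+), with a ratio of 1.21 and a log2 difference of 0.27. The sum was therefore higher in DOX(-), within 1.5-fold, as EEF1A1P5 was, while the EEF1A1 row alone was lower. EEF1A1P5 made up 96.8% of the sum in DOX(-) and 95.9% in DOX(+). In fragments, its share was 98.5% (exact binomial interval 98.48 to 98.58%) and 98.1% (98.04 to 98.16%) with EEF1A1 counted on its shortest transcript of 633 bases, or 90.5% and 88.0% on its longest of 4441 bases. The ratio of the summed fragments, scaled for depth, was 1.22 (1.208 to 1.223) on the shortest and 1.19 (1.18 to 1.194) on the longest transcript. The direction of the sum did not depend on that length. These shares and intervals take the 2 rows to have no fragment in common. Adding every other EEF1A1 pseudogene gave 10837 and 8966 FPKM, which is 3.84% and 3.12% of the FPKM total, and the same log2 difference of 0.27.

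EEF1A2, the isoform of muscle and neurons, was listed at 0 in both libraries (ENSG00000101210, chromosome 20, 63488013 to 63499315). On its shortest transcript 3 fragments correspond to 0.389 FPKM in DOX(-) against 0.348 in DOX(+), and 3 fragments is the limit taken for a count of 0 (counting error only). Its coding sequence matches that of EEF1A1 at 78.4% of aligned positions, and none of its 1343 windows of 50 bases occurs in an EEF1A1 transcript.

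EEF1B2 encodes eEF1Bα, a subunit with exchange activity. The gene (ENSG00000114942, chromosome 2, 206159585 to 206162928, plus strand) was at 85.0 FPKM in DOX(-) against 71.9 in DOX(+), with a ratio of 1.18 (1.046 to 1.335). It too was listed below a pseudogene. EEF1B2P3 (chromosome X, 24788392 to 24789069), which lies within POLA1 on the opposite strand, was at 142.7 and 118.0 FPKM, and EEF1B2P6 (chromosome 7, 131661952 to 131662624) at 47.8 and 44.8 FPKM. POLA1 itself was at 19.6 and 20.2 FPKM, and whether the counting used strand is not given in the sources used here. NDUFS1, whose exons overlap those of EEF1B2 on the other strand, was at 12.1 and 11.9 FPKM. EEF1B2P3 covers the whole 678-base coding sequence with 7 substitutions (98.97% identity), and the first 120 coding bases, which hold 2 of them, are shown with the differing bases in capitals.
EEF1B2, coding bases 1 to 120: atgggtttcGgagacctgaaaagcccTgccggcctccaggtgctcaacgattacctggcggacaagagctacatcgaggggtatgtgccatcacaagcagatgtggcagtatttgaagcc
EEF1B2P3, same bases: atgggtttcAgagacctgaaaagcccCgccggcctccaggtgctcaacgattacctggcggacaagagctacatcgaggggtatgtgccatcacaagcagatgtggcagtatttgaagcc
Together EEF1B2 and its 8 named pseudogenes came to 276.7 FPKM in DOX(-) against 236.2 in DOX(+), of which the pseudogenes held 69.3% and 69.6%. The ratio of the sum was 1.17 (1.108 to 1.235), close to the 1.18 of the gene alone.

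EEF1G encodes the gamma subunit, which anchors the complex. The gene (ENSG00000254772, chromosome 11, 62559601 to 62574086, minus strand) was at 269.7 FPKM in DOX(-) against 206.8 in DOX(+), with a ratio of 1.304 (1.23 to 1.382) and a log2 difference of 0.38. It was the member after EEF2 with the largest difference towards DOX(-), within 1.5-fold. The gene model AP002990.1 shares its exons on the same strand and was at 2.52 and 3.36 FPKM, so little signal stood under that name. The pseudogenes of EEF1G held 2.45% and 2.51% of the family sum.

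EEF1D encodes the delta subunit, a further exchange factor. The gene (ENSG00000104529, chromosome 8, 143579697 to 143599541, minus strand) was at 6.92 FPKM in DOX(-) against 6.70 in DOX(+), with a ratio of 1.03 (0.631 to 1.673). No difference was detectable at this depth. The 3 subunits of the exchange complex were thus listed at unequal levels, EEF1D far below EEF1B2 and EEF1G. EEF1D has 56 annotated transcripts of 308 to 3718 bases, and its exons overlap TIGD5 on the other strand (3.98 and 4.62 FPKM). EEF1DP1, a pseudogene, was at 5.39 and 4.70 FPKM. Together EEF1D and its 8 named pseudogenes came to 13.0 and 11.9 FPKM, of which the pseudogenes held 46.8% and 43.7%. The fragments estimated for EEF1D in DOX(-) were 35 on its shortest transcript and 426 on its longest.

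EEF1E1 encodes AIMP3, a scaffold protein of the multi-synthetase complex that carries the name of an elongation factor. The gene (ENSG00000124802, chromosome 6, 8073360 to 8102578, minus strand) was at 3.81 FPKM in DOX(-) against 5.23 in DOX(+). The ratio of 0.728 had a wide interval of 0.435 to 1.198 that included equal levels, as did that on its longest transcript (0.53 to 1.001). The readthrough gene EEF1E1-BLOC1S5, which shares exons with it, was listed at 0 in both libraries. In the same complex AIMP1 was at 8.90 and 9.17 FPKM and AIMP2 at 21.4 and 26.3 FPKM, so EEF1E1 was the lowest of the 3 scaffold genes.

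EEF2 encodes eEF2, the translocase. The gene (ENSG00000167658, chromosome 19, 3976056 to 3985469, minus strand) was at 1603 FPKM in DOX(-) against 1048 in DOX(+), rank 3 and rank 4 of all nuclear protein-coding genes. Its ratio of 1.53 (1.47 to 1.592) and log2 difference of 0.61 made it the only member past 1.5-fold. Among the 674 genes with a mean of 50 FPKM or more, 1.63% were 1.5-fold higher in DOX(-). The call is close to the threshold: with each library scaled to its FPKM sum without the mitochondrial genome, the difference was 0.54, under 1.5-fold. No row of the table is named as a pseudogene of EEF2, so no such sum applies. Relative to EEF2, the sum of EEF1A1 and EEF1A1P5 was 5.62 times as high in DOX(-) and 7.11 times in DOX(+), whereas the EEF1A1 row alone was 0.178 and 0.290 of EEF2.

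EEF2K (ENSG00000103319, chromosome 16, 22206282 to 22288732, plus strand) was at 12.0 FPKM in DOX(-) against 10.7 in DOX(+). Its ratio of 1.12 had an interval of 0.841 to 1.485 that included equal levels. The kinase transcript was therefore not distinguishable between the libraries on the shortest transcript. On the longest transcript, of 7388 bases, the interval was 1.046 to 1.21.

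**Figure D3:**
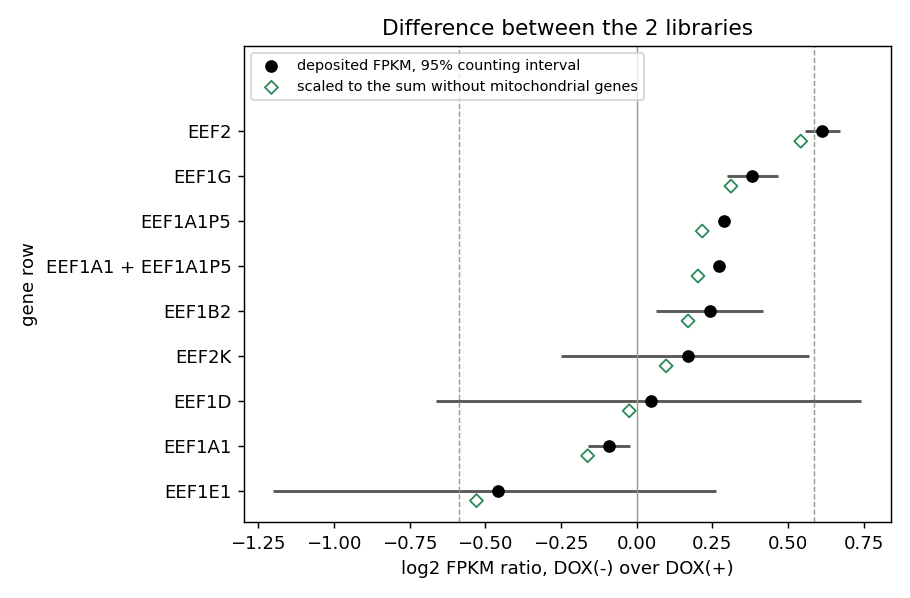
Log2 ratio of FPKM, DOX(-) over DOX(+), for the 8 members above 1 FPKM and for the sum of EEF1A1 and EEF1A1P5. Black points are the deposited values with 95% counting intervals on the shortest transcript. Open diamonds are the same ratios with each library scaled to its FPKM sum without mitochondrial genes, and dashed lines mark 1.5-fold. For the sum, the point is the ratio of summed FPKM (1.209). Its interval is that of the summed fragments scaled for depth (ratio 1.208 to 1.223), which was 1.18 to 1.194 on the longest EEF1A1 transcript. EEF2 lies at 0.61, outside the line, and at 0.54 after that scaling.

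By counting error alone, on the shortest transcript, 4 members had ratio intervals above 1 (EEF2, EEF1G, EEF1A1P5 and EEF1B2), 1 had an interval below 1 (EEF1A1) and 3 included 1. Over all genes tested with a transcript length, 7.59% had an interval above 1 and 8.53% below. The members with intervals that left out 1 are also the most deeply counted ones, and the interval says nothing of the spread between cultures.

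The start sites of the abundant members are shown because 5′ TOP tracts are a known feature of this family. RefSeq (GRCh38.p14) had a start for 6 of the 9 members, and each window runs from 25 bases before to 25 bases from the annotated start. Capitals mark a C followed by at least 4 of C or T that begins on the start base. The windows were searched and are written on the strand with the sequence of the mRNA.
EEF1A1, chr6:73521008-73521057, minus strand: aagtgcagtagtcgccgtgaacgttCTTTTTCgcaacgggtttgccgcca
EEF2, chr19:3985439-3985488, minus strand: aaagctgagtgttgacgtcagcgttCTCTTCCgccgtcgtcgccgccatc
EEF1B2, chr2:206159870-206159919, plus strand: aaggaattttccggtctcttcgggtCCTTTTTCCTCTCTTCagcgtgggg
EEF1G, chr11:62573867-62573916, minus strand: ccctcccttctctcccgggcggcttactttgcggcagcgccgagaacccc
EEF1A1, EEF2 and the second of 2 annotated starts of EEF1B2 begin with such a run, of 7, 7 and 16 bases, and the annotated start of EEF1G does not. Of all 35116 RefSeq windows, 4.07% have such a run on the start base. EEF1E1 and EEF2K have none on theirs. Of the genes with such a run, EEF2 (ratio 1.53) and EEF1B2 (1.18) were higher in DOX(-). EEF1A1, which also has one, was lower as its own row (0.939) but higher when summed with EEF1A1P5 (1.21). Without such a run on the start base, EEF1G (1.304) and EEF2K (1.12) were higher in DOX(-) too, and EEF1E1 (0.728) was lower. The intervals of EEF2K and EEF1E1 included equal levels on the shortest transcript.

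The table names 64 pseudogene rows after members (39 for EEF1A1, 8 each for EEF1B2, EEF1D and EEF1G, 1 for EEF1E1), of which 14 reached 1 FPKM and 29 were listed at 0 in both libraries. None of the 14 differed 1.5-fold on the log2(FPKM + 1) scale, against 8.95% of the 1084 processed pseudogenes tested. Their differences were above 0 in 13 of 14, with a median of 0.27, against 54.9% above 0 and a median of 0.04 over those processed pseudogenes. The 9 EEF1A1 pseudogenes at this level were all higher in DOX(-), at ratios of 1.16 to 1.46, opposite to the EEF1A1 row. Of these 9, EEF1A1P12, EEF1A1P16, EEF1A1P19 and EEF1A1P4 had counting intervals that included equal levels. So did EEF1B2P6, EEF1B2P2, EEF1GP5 and EEF1DP1 among the 14. These rows share sequence with each other and with the parent, so they are not separate observations.

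After EEF1A1P5, EEF1A1P6 (chromosome 7, 22510616 to 22511999) was at 1520 and 1270 FPKM, with a ratio of 1.20 (1.179 to 1.215). EEF1A1P6 alone was thus above the EEF1A1 row in both libraries. EEF1A1P13 (chromosome 5, 14651941 to 14653329) was at 262.1 and 210.7 FPKM, a ratio of 1.24 (1.199 to 1.291), and EEF1A1P9 at 20.4 and 17.1 FPKM. The other 5 were EEF1A1P11, EEF1A1P12, EEF1A1P16, EEF1A1P19 and EEF1A1P4, between 1.31 and 8.95 FPKM. EEF1GP5 was at 6.49 and 5.28 FPKM, and EEF1B2P2, at 0.625 and 1.198 FPKM (plain ratio 0.521, 0.18 to 1.358), was the 1 of the 14 that was lower in DOX(-) and the 1 that reached 1 FPKM in DOX(+) alone.

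**Figure D4:**
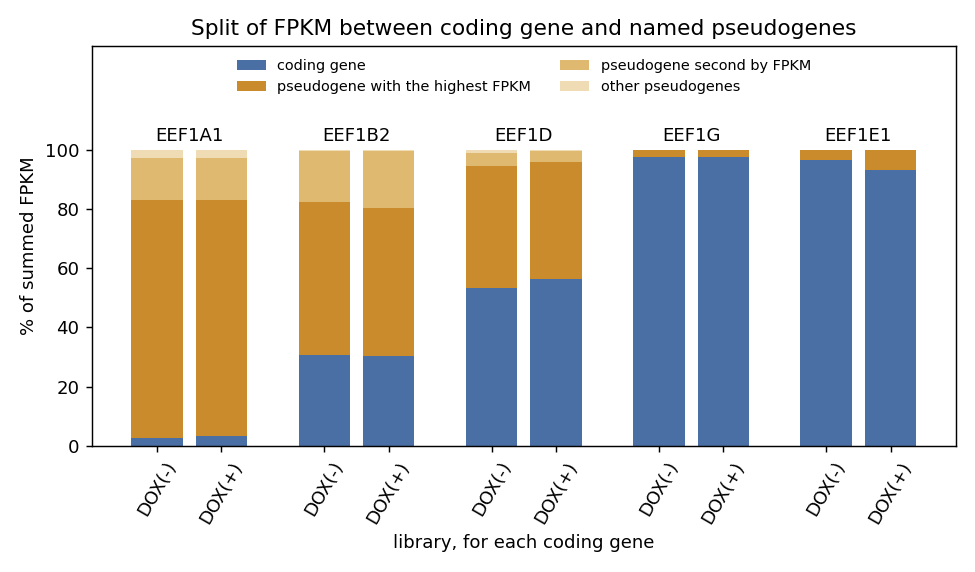
Share of the FPKM summed over each coding gene and its named pseudogenes, for DOX(-) and DOX(+). Blue is the coding gene and the brown shades are its pseudogenes, which hold 97.4% and 96.6% of the EEF1A1 sum, 69.3% and 69.6% of the EEF1B2 sum and 2.45% and 2.51% of the EEF1G sum.

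The level of a pseudogene went with its likeness to the parent. Identity to the parent's coding sequence ranged from 92.1% to 99.71% (median 96.9%) in the 14 rows of 1 FPKM or more, from 76.5% to 95.7% (median 90.3%) in 21 rows above 0 and below 1 FPKM, and from 63.2% to 92.4% (median 83.8%) in the 29 rows at 0. Spearman's rho between identity and mean FPKM was 0.788 across all 64 pseudogenes and 0.871 across the 39 of EEF1A1. Pearson's r between identity and log2(mean FPKM + 1) was lower, at 0.547 and 0.566. These values describe rows that share parents and both libraries. Whether fragments of the parent mRNA were listed under its pseudogenes was not tested. EEF1A1P5, with the highest identity, had the highest level, followed in level by EEF1A1P6 at 99.42% and EEF1A1P13 at 98.1%. The 2 orders were not the same throughout. EEF1B2P3, at 98.97%, was listed below EEF1A1P13 (142.7 and 118.0 against 262.1 and 210.7 FPKM). A 100-base window identical to an EEF1A1 transcript exists in 8 of the 9 EEF1A1 pseudogenes of 1 FPKM or more and in none of the 17 at 0.

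**Figure D5:**
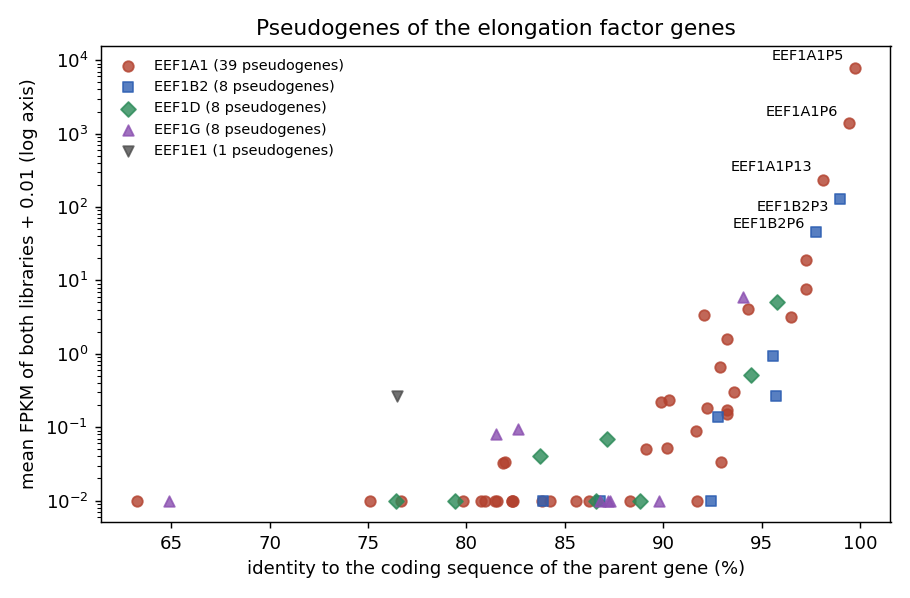
Each point is 1 of the 64 pseudogenes, with identity to the coding sequence of its parent (%) against its mean FPKM over both libraries plus 0.01 on a log axis, so that rows at 0 lie on the bottom line. The 14 rows of 1 FPKM or more lie at 92.1% identity or above, with EEF1A1P5 at the top right at 99.71%.

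Pseudogene rows above their parent were found in other families too. Of 1181 protein-coding genes that reached 1 FPKM and have a processed pseudogene named for them, the pseudogenes summed above the gene in both libraries for 139 genes (11.8%). By the share of FPKM held by pseudogenes, EEF1A1 was at rank 11 of 1181, EEF1B2 at rank 95, EEF1D at rank 167, EEF1E1 at rank 389 and EEF1G at rank 470, where the median share was 0.616%.

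Nearest to EEF1A1 over the log2(FPKM + 1) values of the 2 libraries were PCNA (286.7 and 315.7 FPKM, distance 0.06), PLEK (296.0 and 288.5 FPKM, 0.09) and PPIB (298.0 and 276.6 FPKM, 0.15). Nearest to EEF1A1P5 were the ferritin light chain gene FTL (7351 and 6997 FPKM, 0.25) and the mitochondrial genes MT-CO2 (0.39) and MT-CO1 (0.43). Nearest to EEF2 were HSP90AB1 (1716 and 1530 FPKM, 0.55), SRGN (1063 and 1072 FPKM, 0.59) and MT-ND3 (0.64). The distances mainly reflect equal level, since there are only 2 libraries.

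Few genes that act around the elongation factors differed 1.5-fold, which 7.17% of all tested genes did in either direction. Of 11 tested genes for enzymes that modify eEF1A and eEF2, none differed 1.5-fold (median -0.00). The largest differences were in DPH1, of diphthamide synthesis on eEF2 (4.03 and 2.58 FPKM, log2 difference 0.49), and METTL13, an eEF1A methyltransferase (7.60 and 11.04 FPKM, -0.49). On the shortest transcript both had counting intervals that included equal levels, and on the longest transcript neither did (1.238 to 1.99 for DPH1 and 0.608 to 0.779 for METTL13). With a pseudocount of 0.1 FPKM, 1 gene of this list was 1.5-fold higher in DOX(-).

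Of 12 other elongation and quality control factors, 1 was 1.5-fold higher in DOX(-) and none lower (median 0.02). The count was 2 with a pseudocount of 0.1 FPKM and under median-of-ratios and trimmed-mean scaling, and 0 with a pseudocount of 5 FPKM. DHPS, named after its value was seen, lay just under 1.5-fold at 2.69 and 1.47 FPKM (log2 difference 0.58). The gene past 1.5-fold was GTPBP1, a GTPase related to eEF1A, at 8.42 FPKM in DOX(-) against 4.69 in DOX(+), with a ratio of 1.79 (1.129 to 2.918). EIF5A, whose product helps peptide bonds form at difficult sequences, was at 66.9 and 66.4 FPKM (ratio 1.01, 0.907 to 1.121). TPT1, another 5′ TOP mRNA, was at 26.6 and 25.9 FPKM, and VARS, the valyl-tRNA synthetase that binds the eEF1B complex, at 38.1 and 32.7 FPKM. The interval of TPT1 included equal levels on the shortest and on the longest transcript. That of VARS included them on the shortest (0.966 to 1.391) and not on the longest (1.102 to 1.228).

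Of 7 genes of termination and ribosome recycling, none differed 1.5-fold and 1 was above 0 (median -0.17). DENR, a recycling factor, was at 34.2 and 43.2 FPKM with a ratio of 0.792 (0.691 to 0.903), and ETF1, the release factor eRF1, at 31.0 and 36.4 FPKM with a ratio of 0.853 (0.719 to 1.01). Of 10 mitochondrial translation factors none differed 1.5-fold and 2 were above 0 (median -0.10). TUFM, the mitochondrial counterpart of EEF1A1, was at 191.3 and 163.1 FPKM (ratio 1.17, 1.068 to 1.287), and TSFM, its exchange factor, at 4.17 and 6.18 FPKM (0.675, 0.445 to 1.029). GUF1, a mitochondrial GTPase, was at 9.83 and 12.0 FPKM.

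Of 16 genes for regulators of EEF2K, none differed 1.5-fold and 7 were above 0 (median -0.08). RPS6KB1, the S6 kinase that phosphorylates EEF2K, was at 3.27 and 4.91 FPKM (ratio 0.666, 0.376 to 1.131). CALM3, which encodes calmodulin, the activator of the kinase, was at 28.5 and 37.5 FPKM (0.759, 0.645 to 0.893). Of 10 partners of EEF1E1 in the synthetase complex, none differed 1.5-fold and 6 were above 0 (median 0.06), with KARS at 41.1 and 33.0 FPKM (1.245, 1.056 to 1.467) and RARS at 21.2 and 27.2 FPKM (0.778, 0.553 to 1.088). On the longest transcripts the intervals of ETF1 (0.804 to 0.904), TSFM (0.549 to 0.831), RPS6KB1 (0.575 to 0.771) and RARS (0.707 to 0.854) did not include equal levels.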

How the data were processed

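RNA-seq of 2 libraries, 1 per condition, was analysed. Per the file headers, the authors deposited 1 FPKM value per gene and library. Tools listed in the submitters' processing notes, without their roles, are StringTie 1.3.4b, HISAT2 2.1.0, edgeR and CASAVA 1.8, beside hg38 and GRCh38 as builds. The annotation release, read length and treatment of multiply mapped reads are not given in the sources used here. Of 58302 rows, 58039 were found in GENCODE release 29, and 8 of the 9 members had the same locus there (EEF1A2 differed), so transcript lengths and sequences came from it.

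Depth was recovered from FPKM steps in genes with 1 transcript, where 99.57% and 99.6% of values up to 100 fragments were whole within 0.02 fragment. FPKM divides by transcript length and by a total that includes mitochondrial fragments. Fragments carried no molecular identifiers in the files, so they cannot be taken as independent molecules. Pseudogenes were those with a member's symbol followed by P and a number, aligned locally with Biopython 1.88 to the longest coding sequence with a CCDS tag of the parent. Intervals used scipy 1.17.1. The recovery of depth and the 1.5-fold calls were tested on simulated counts with a known length for each gene. The intervals, sums, shares and alignments were not tested in this way, and no multiply mapped fragments were simulated.

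Members and lists were chosen with earlier results of these data known. Named genes were the 9 members, pseudogenes of 1 FPKM or more, EIF2S3, overlapping genes, the 3 nearest protein-coding genes of 3 members, in each list those past 1.5-fold or else the 2 of 2 FPKM or more that differed most, and TUFM, EIF5A, TPT1, VARS, AIMP1, AIMP2 and ETF1. EEF1AKMT4, on the first list, matched no symbol. Alternatives covered the pseudocount (0.1 and 5 FPKM), 3 scalings, the fold, the filter, transcript length and the sum.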

Additional observations from a re-analysis of the deposited data

How the results depend on the processing

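No paired analysis was possible because each condition had 1 library. The count of 1 member 1.5-fold higher in DOX(-) and 0 lower was kept under pseudocounts of 0.1 and 5 FPKM, median-of-ratios and trimmed-mean scaling, no filter and a filter at 5 FPKM. With scaling to the FPKM sum without mitochondrial genes, 0 members were 1.5-fold higher, since EEF2 fell to 0.54, and 0 passed a 2-fold rule. Calling by a counting interval that excludes 1 gave 4 members higher and 1 lower. The log2 difference of the summed EEF1A1 and EEF1A1P5, 0.27 as deposited, was 0.301 under median-of-ratios, 0.303 under trimmed-mean and 0.203 under the scaling without mitochondrial genes, and 0.28 from summed fragments. That last scaling lowers every difference by about 0.07 and moved the median of all tested genes to -0.08. EEF1D, at 0.04, turned to -0.02 under it, and no other member changed sign under any pseudocount or scaling. In the related lists 78 of 84 recomputed counts were unchanged, and the 6 others changed by 1 gene. Most of these counts were 0 and stayed 0, so this tally says little of stability. The count of other elongation and quality control factors higher in DOX(-), 1 as deposited, was less stable. It was 2 with a pseudocount of 0.1 FPKM, median-of-ratios or trimmed-mean scaling, and 0 with a pseudocount of 5 FPKM or a 2-fold rule. Low fragment numbers on short transcripts limit EEF1D, EEF1E1 and EEF2K.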
